A study of Zea mays with 6 samples.

Results

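Nitrate reductase and glutamine synthetase catalyse the entry of nitrate into amino acids in plants, and 8 maize genes of these enzyme families, 2 of nitrate reductase and 6 of glutamine synthetase, were followed here among the 44351 genes of an RNA sequencing data set of leaves. The members were taken by identifier from a fixed list that names the enzyme family of each. The deposited tables hold no annotation, and the maize reference table used here matched 0 of the 8 identifiers, so the family names could not be checked against sequence and no isoform, symbol or position is given. All 8 genes had a mean of at least 0.5 FPKM (fragments counted per gene, divided by the gene's length and by the library's mapped fragments) over the 6 libraries and entered the test.

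The transgenic group comprised 3 libraries from leaves of a transgenic strain of KN5585, a maize inbred line, and the control group comprised 3 libraries from its non-transgenic counterpart. The series title names ZmSUS1, a sucrose synthase, as the overexpressed gene, and the sources used here give neither its promoter nor the number of transformation events. The labels place both groups 3 days after drought, whereas the series text speaks of 5 days, and the control samples are labelled normal under treatment. If the control plants were watered, drought and transgene cannot be told apart in any difference below. The level of the transgene's product and the markers of leaf tissue were not analysed here, because the identifiers are not paired with symbols. The series text calls the libraries biological replicates without saying that they came from separate plants, so a p-value here reflects the scatter among libraries, which may be technical. Depth in reads is unknown, since FPKM does not carry it. Total FPKM was between 829541 and 831082 in the transgenic libraries and between 684047 and 689548 in the control libraries, and the median difference over all 22944 tested genes was -0.56 on the log2 scale. Directions are therefore also given after 3 scalings between libraries: median-of-ratios, which brought that median to -0.01, the same total FPKM, which brought it to -0.78, and quantile normalisation, which brought it to -0.05.

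Nitrate reductase is a molybdenum-containing enzyme of the cytosol that reduces nitrate to nitrite, which the plastid then reduces to ammonium. Glutamine synthetase uses ATP to join ammonium to glutamate, giving glutamine, the donor of nitrogen for further amino acids. Plants hold a plastid form of the enzyme, which in leaves takes up ammonium from nitrate and from photorespiration, and several cytosolic forms, which are known for the recycling of ammonium and the export of nitrogen from leaves. Nitrate reductase transcripts are known to respond to nitrate, light and sugars.

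The main nitrate reductase gene stood at nearly the same FPKM in both groups, while the minor gene was higher in the transgenic leaves. Among the 6 glutamine synthetase genes, 4 were higher and 2 were lower as deposited, and 2 of them, Zm00001d028260 and Zm00001d026501, rose 9.79-fold and 8.16-fold in mean FPKM. In bulk leaf tissue, a change in the number of cells of a type and a change in RNA per cell cannot be told apart. The make-up of the glutamine synthetase transcripts differed accordingly, with Zm00001d028260 next after the leading gene in the transgenic leaves and Zm00001d051804 in that place in the control leaves. Of the 8 genes, 5 were higher, 2 were lower and 1 was not called (limma on log2(FPKM + 1), Benjamini-Hochberg adjusted p threshold of 0.05). Of all tested genes 84.0% were called, 16.3% higher and 67.7% lower, so the number of members called is near the background. After median-of-ratios scaling 6 members were higher, 1 was lower and 1 was not called, and of all tested genes 73.2% were called, 36.5% higher and 36.7% lower. Transgenic and control values did not overlap in 7 of the 8 members and in 84.5% of all tested genes as deposited. The median log2 difference of the 8 members was 0.66, against -0.56 for all tested genes.

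**Figure D1:**
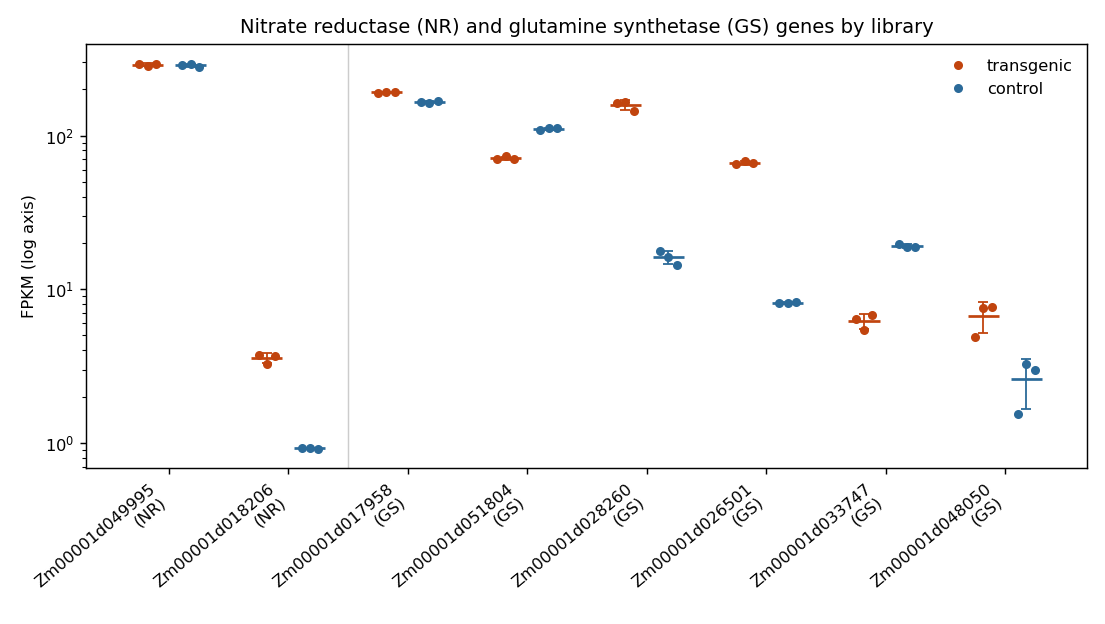
FPKM of each nitrate reductase (NR) and glutamine synthetase (GS) gene in 3 transgenic libraries (left of each pair) and 3 control libraries, on a log axis; points are libraries, bars the mean and error bars the SD. The groups overlap for Zm00001d049995 and are apart for the other 7 genes, by the widest ratio for Zm00001d028260 and Zm00001d026501.

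Zm00001d049995 was the nitrate reductase gene that carried nearly all of the family's signal. Its values were 293.91, 281.29 and 290.50 FPKM in the transgenic libraries and 288.13, 291.38 and 279.82 FPKM in the control libraries. The ranges overlapped almost wholly. The means were 288.6 ± 6.5 FPKM in transgenic and 286.4 ± 6.0 FPKM in control leaves (SD, n = 3 each). The log2 difference of 0.01 had a 95% confidence interval from -0.05 to 0.07 and was not called (limma adjusted p = 0.70). This holds for the deposited FPKM only. Relative to the median gene, after median-of-ratios scaling, Zm00001d049995 was higher in the transgenic leaves by a log2 difference of 0.70 (limma adjusted p = 5.6e-08), whereas with the same total FPKM it fell by 0.26 and with quantile normalisation it fell by 0.13 (limma adjusted p = 1.2e-05 and 0.0015). Its place among genes, which a scaling factor cannot move, was slightly lower in the transgenic libraries: it ranked 270, 282 and 274 of the tested genes in the transgenic libraries and 239, 238 and 256 in the control libraries.

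Zm00001d018206, the other nitrate reductase gene, was at a low level in both groups. It stood at 3.74, 3.28 and 3.69 FPKM in the transgenic libraries and at 0.92, 0.93 and 0.91 FPKM in the control libraries. The transgenic libraries all lay above the control libraries, with means of 3.57 ± 0.25 FPKM in transgenic and 0.92 ± 0.01 FPKM in control leaves (SD, n = 3 each), a 3.88-fold difference. The log2 difference was 1.25 ± 0.09 (SE, limma adjusted p = 1.8e-06), a size that the pseudocount of 1 reduces for a gene this low; with a pseudocount of 0.1 it was 1.84. Genes of a like level, within 1.2-fold of its mean over the 6 libraries, had a median coefficient of variation of 12.3% in the control libraries. That of Zm00001d018206 was 1.09% there, so its SE rests partly on an unusually close set of control values and partly on the scatter of other genes. With limma's intensity trend over genes the SE was 0.088, and without that trend it was 0.054. The direction and the call of Zm00001d018206 held under all 3 scalings, with log2 differences of 1.68, 1.08 and 1.73 for median-of-ratios, same total and quantile.

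Summed over both genes, nitrate reductase came to 297.65, 284.57 and 294.19 FPKM in the transgenic libraries and to 289.05, 292.31 and 280.73 FPKM in the control libraries. The ranges overlapped, and the difference of 4.77 FPKM was within the spread between libraries (exact permutation test, two-sided p = 0.4, where 3 against 3 libraries cannot go below 0.1). The sum followed Zm00001d049995 in sign and was 1.64-fold higher in transgenic leaves after median-of-ratios scaling, but lower with the same total FPKM and with quantile normalisation. Zm00001d049995 made up 98.8% ± 0.06 of the sum in transgenic and 99.7% ± 0.003 in control leaves (SD, n = 3 each; exact permutation two-sided p = 0.1, the smallest possible). The minor gene thus accounted for 1.22% and 0.320% of the nitrate reductase FPKM in transgenic and control leaves.

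The glutamine synthetase genes fell into a leading gene that changed little, a pair that rose strongly, a pair that was lower as deposited and a minor gene that was higher. Zm00001d017958 led in every library, at 189.29, 190.97 and 192.91 FPKM in the transgenic and 165.69, 163.30 and 168.71 FPKM in the control libraries. The groups did not overlap, but they were close: 191.1 ± 1.8 FPKM in transgenic and 165.9 ± 2.7 FPKM in control leaves (SD, n = 3 each). As deposited its log2 difference was 0.20 ± 0.02 (SE, limma adjusted p = 2.8e-05), and 0.89 and 0.21 with median-of-ratios and quantile scaling, while with the same total FPKM it fell by 0.07 (limma adjusted p = 0.010). Its direction therefore depends on the scaling. It ranked between 420 and 428 of the tested genes in the transgenic libraries and between 507 and 517 in the control libraries.

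Zm00001d028260 showed the widest difference of the 8 genes. It stood at 163.33, 166.12 and 145.44 FPKM in the transgenic libraries, against 17.79, 16.28 and 14.45 FPKM in the control libraries. The lowest transgenic value was far above the highest control value. The means were 158.3 ± 11.2 FPKM in transgenic and 16.2 ± 1.7 FPKM in control leaves (SD, n = 3 each), and the log2 difference was 3.22 ± 0.08 (SE, limma adjusted p = 2.9e-09). As deposited, 54 of the 22944 tested genes had a larger positive difference, or 181 with a pseudocount of 0.1, which reduces the differences of low genes less. Under the scalings the log2 difference was 3.88 with median-of-ratios, 2.95 with the same total and 3.50 with quantile normalisation, called in each.

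Zm00001d026501 rose by a similar ratio from a lower level. Its values were 64.83, 68.72 and 65.93 FPKM in the transgenic libraries, against 8.08, 8.10 and 8.28 FPKM in the control libraries. The groups were far apart and each was tight, at 66.5 ± 2.0 FPKM in transgenic and 8.15 ± 0.11 FPKM in control leaves (SD, n = 3 each). The log2 difference was 2.88 ± 0.04 (SE, limma adjusted p = 1.2e-10), and 81 of the tested genes had a larger positive one, or 242 with a pseudocount of 0.1. It was 3.52, 2.62 and 3.32 with median-of-ratios, same total and quantile scaling. Of all tested genes 0.318% were called and higher by at least 3 on the log2 scale as deposited, a size that Zm00001d028260 passed and Zm00001d026501 did not. The ratio of Zm00001d026501 to Zm00001d028260 within a library was 0.397, 0.414 and 0.453 in the transgenic and 0.454, 0.498 and 0.573 in the control libraries, with means of 0.421 and 0.508, so their proportion moved far less than their levels.

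Zm00001d051804 and Zm00001d033747 were lower in the transgenic leaves as deposited. Zm00001d051804, an abundant gene, stood at 69.87, 73.24 and 70.44 FPKM in the transgenic libraries and at 108.97, 111.20 and 111.68 FPKM in the control libraries. The groups did not overlap, with means of 71.2 ± 1.8 and 110.6 ± 1.4 FPKM in transgenic and control leaves (SD, n = 3 each). Its log2 difference of -0.63 ± 0.03 (SE, limma adjusted p = 1.1e-07) was close to the median of all tested genes, -0.56. After median-of-ratios scaling it was 0.05 with a 95% confidence interval from -0.01 to 0.11 and did not pass (limma adjusted p = 0.12), so its fall holds for the deposited FPKM, the same total (-0.90) and quantile normalisation (-0.39), and not relative to the median gene.

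Zm00001d033747 was lower under every scaling run. It stood at 6.37, 5.43 and 6.78 FPKM in the transgenic libraries, against 19.79, 18.85 and 18.89 FPKM in the control libraries. The transgenic libraries all lay below the control libraries, and the mean was 3.10-fold higher in control leaves (6.19 ± 0.69 FPKM in transgenic and 19.2 ± 0.5 FPKM in control leaves, SD, n = 3 each). The log2 difference was -1.49 ± 0.08 (SE, limma adjusted p = 2.3e-07), and -0.87, -1.74 and -0.86 with median-of-ratios, same total and quantile scaling. As deposited, 23.6% of all tested genes were called and lower by at least 1 on the log2 scale, and 7.56% were after median-of-ratios scaling, where this gene no longer reached that size.

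Zm00001d048050 was the least abundant glutamine synthetase gene in the control leaves and the most variable member. Its values were 4.91, 7.60 and 7.61 FPKM in the transgenic libraries and 1.54, 3.28 and 2.96 FPKM in the control libraries. In each group 1 library was low, replicate 1, and the groups still did not overlap. The log2 difference was 1.12 ± 0.22 (SE, limma adjusted p = 0.0013), with means of 6.71 ± 1.56 FPKM in transgenic and 2.59 ± 0.93 FPKM in control leaves (SD, n = 3 each). Its coefficient of variation was 23.2% in transgenic and 35.7% in control libraries, against medians of 9.61% and 7.89% for genes of a like level. It was called higher under the 3 scalings, at 1.65, 0.90 and 1.69 with median-of-ratios, same total and quantile. The value left without single libraries ranged from 0.88 to 1.30.

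**Figure D2:**
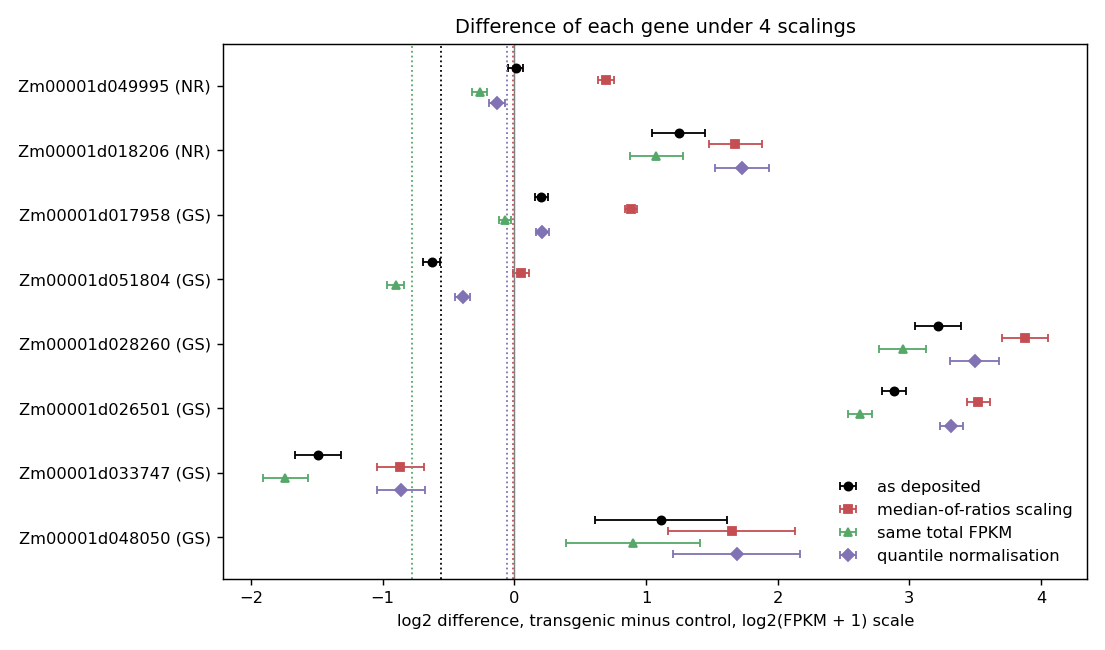
Log2 difference of each gene, transgenic minus control, on the log2(FPKM + 1) scale as deposited and under 3 scalings; points are limma estimates, bars 95% confidence intervals and dotted lines the median of all tested genes under the scaling of the same colour. Zm00001d018206, Zm00001d028260, Zm00001d026501 and Zm00001d048050 lie to the right of 0 and Zm00001d033747 to the left under all 4, while Zm00001d049995, Zm00001d017958 and Zm00001d051804 lie on either side depending on the scaling.

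Summed over its 6 genes, glutamine synthetase came to 498.60, 512.08 and 489.11 FPKM in the transgenic libraries and to 321.86, 321.01 and 324.97 FPKM in the control libraries. All transgenic libraries lay above all control libraries, with means of 499.9 ± 11.5 FPKM in transgenic and 322.6 ± 2.1 FPKM in control leaves (SD, n = 3 each). The sum was 1.55-fold higher in transgenic leaves (exact permutation two-sided p = 0.1, the smallest possible). It was 2.50-fold higher with median-of-ratios scaling, 1.28-fold with the same total FPKM and 1.70-fold with quantile normalisation.

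Shares within the family do not depend on a scaling factor between libraries. Zm00001d017958 held 38.2% ± 1.1 of the glutamine synthetase FPKM in transgenic and 51.4% ± 0.5 in control leaves (SD, n = 3 each; exact permutation two-sided p = 0.1, the smallest possible). Zm00001d028260 held 32.8%, 32.4% and 29.7% in the transgenic libraries and 5.53%, 5.07% and 4.45% in the control libraries, a share higher by 26.6 percentage points on average. The share of Zm00001d026501 was 13.3% ± 0.3 in transgenic and 2.53% ± 0.02 in control leaves (SD, n = 3 each). The shares of 2 further genes were lower in the transgenic leaves. Zm00001d051804 held 14.2% ± 0.2 in transgenic and 34.3% ± 0.4 in control leaves, and Zm00001d033747 held 1.24% ± 0.17 and 5.94% ± 0.18 in transgenic and control leaves (SD, n = 3 each). For Zm00001d048050 the shares of the groups overlapped, at 1.34% ± 0.31 in transgenic and 0.804% ± 0.287 in control leaves (SD, n = 3 each).

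**Figure D3:**
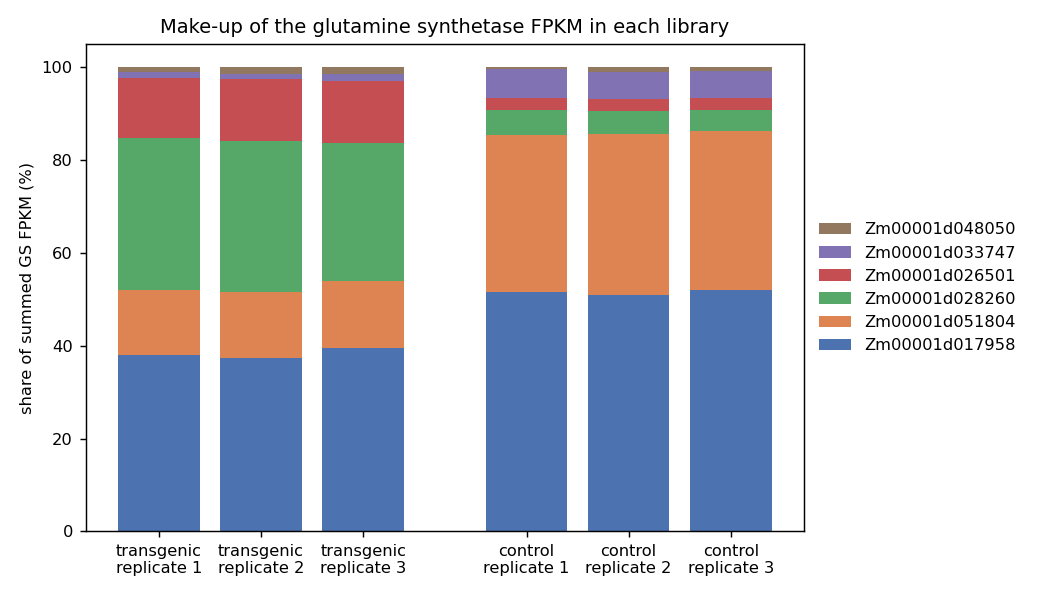
Share of each of the 6 glutamine synthetase genes in the summed glutamine synthetase FPKM of each library, 3 transgenic libraries at the left and 3 control libraries at the right. Zm00001d028260 and Zm00001d026501 together take a far larger part in the transgenic libraries, and Zm00001d051804 and Zm00001d033747 a smaller one.

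Some members exchanged places within the family. Zm00001d028260 stood at 2.34, 2.27 and 2.06 times the level of Zm00001d051804 in the transgenic libraries and at 0.163, 0.146 and 0.129 times that level in the control libraries, so the order of these 2 abundant genes was opposite in the groups. The order of Zm00001d026501 and Zm00001d033747 was also opposite, with a mean ratio of 10.9 in transgenic and 0.425 in control leaves. The summed FPKM of glutamine synthetase was 1.68, 1.80 and 1.66 times that of nitrate reductase in the transgenic libraries and 1.11, 1.10 and 1.16 times in the control libraries (exact permutation two-sided p = 0.1, the smallest possible).

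Ordered by FPKM, a level per gene length, the transgenic leaves had Zm00001d049995 first, then Zm00001d017958, Zm00001d028260, Zm00001d051804, Zm00001d026501, Zm00001d048050, Zm00001d033747 and Zm00001d018206. Among these neighbours, the libraries of Zm00001d048050 and Zm00001d033747 overlapped and those of the others did not. In the control leaves the order was Zm00001d049995, Zm00001d017958, Zm00001d051804, Zm00001d033747, Zm00001d028260, Zm00001d026501, Zm00001d048050 and Zm00001d018206, with no overlap between neighbours.

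The position of each member among all tested genes of its own library gave the same division. On average 97.7% of the tested genes had a lower FPKM than Zm00001d028260 in the transgenic libraries and 65.3% in the control libraries. For Zm00001d026501 the figures were 94.3% in transgenic and 46.5% in control libraries. A gene near the middle of the tested genes in the control libraries was thus among the abundant ones in the transgenic libraries. Zm00001d018206 stood above 39.1% of the tested genes in transgenic and 7.93% in control libraries, and Zm00001d048050 above 54.1% in transgenic and 22.4% in control libraries. The place of Zm00001d033747 was lower in the transgenic libraries, at 52.5% in transgenic and 70.1% in control libraries. The 3 abundant genes whose direction depended on the scaling stood near the top of the range in both groups, where a percentage moves little: Zm00001d049995 at 98.8% and 98.9%, Zm00001d017958 at 98.2% and 97.8%, and Zm00001d051804 at 94.7% and 96.3% in transgenic and control libraries. Their ranks did not overlap between the groups, but the share of all tested genes with ranks apart was not computed. In FPKM as deposited, 84.5% of all tested genes did not overlap. Zm00001d051804 ranked 1229, 1172 and 1216 in the transgenic and 862, 852 and 856 in the control libraries.

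**Figure D4:**
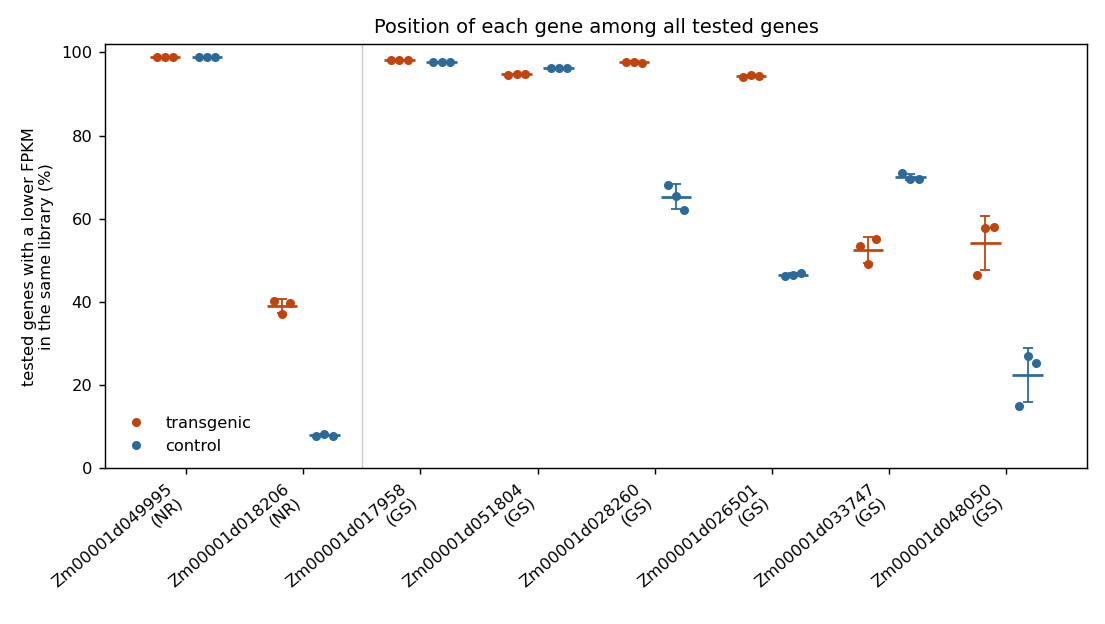
Percentage of the tested genes with a lower FPKM than each member in the same library, for 3 transgenic (left of each pair) and 3 control libraries. Points are libraries, bars the mean and error bars the SD. Zm00001d049995, Zm00001d017958 and Zm00001d051804 stay near the top in both groups, and Zm00001d026501 stands at 94.3% in transgenic and 46.5% in control libraries.

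Genes of a like level showed where the members lay in the wider difference between the groups. Among 463 genes within 1.2-fold of the mean level of Zm00001d028260, the median log2 difference was -0.35 and 0.648% had a larger positive difference than it. Among 1217 genes at the level of Zm00001d026501 the median was -0.53, and 0.411% had a larger one. The differences of the minor genes Zm00001d018206 and Zm00001d048050 were exceeded by 4.16% of 1444 and 3.61% of 1827 genes at their levels. At the level of Zm00001d033747, 9.37% of 2294 genes had a more negative difference. The 3 members whose direction depended on the scaling lay in the middle of the genes at their level. Of 96 genes, 43.8% were below the difference of Zm00001d049995. The figures were 56.2% of 208 for Zm00001d017958 and 34.2% of 450 for Zm00001d051804.

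**Figure D5:**
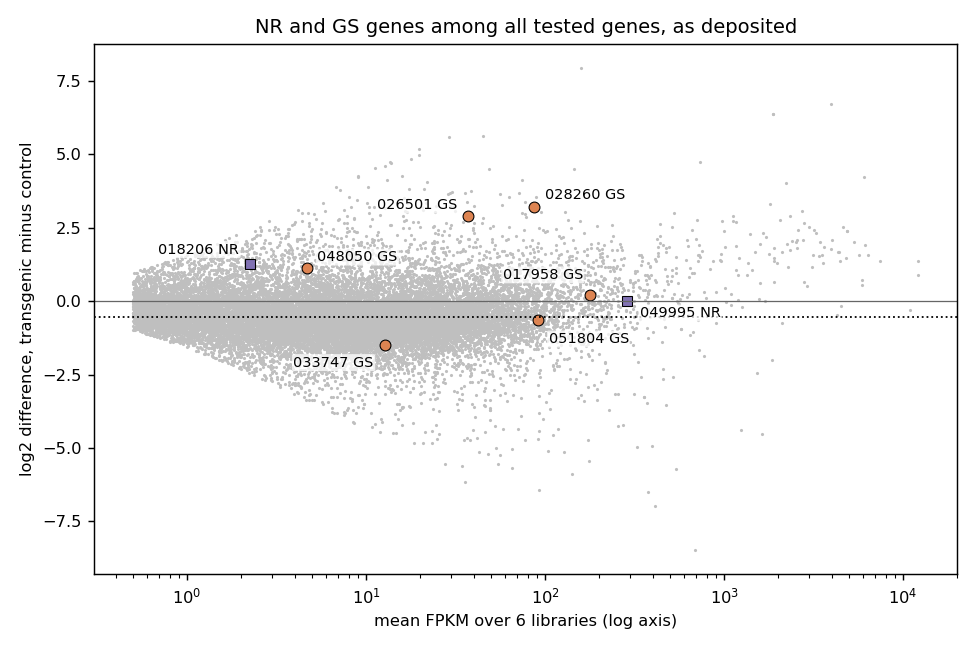
Log2 difference, transgenic minus control, against the mean FPKM over 6 libraries (log axis) for the tested genes (grey), with the nitrate reductase (NR, squares) and glutamine synthetase (GS, circles) genes marked by the ends of their identifiers. The dotted line is the median of all tested genes, -0.56; Zm00001d028260 and Zm00001d026501 lie near the upper edge of the cloud at their level, and Zm00001d051804 lies close to the median.

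The gene whose profile was nearest to that of Zm00001d049995, by the root-mean-square difference of log2(FPKM + 1) over the 6 libraries, was Zm00001d039104, at 0.07 on the log2 scale, with means of 301.8 FPKM in transgenic and 275.9 FPKM in control leaves. The nearest to Zm00001d017958 was Zm00001d012675, at 0.04, with means of 185.2 FPKM in transgenic and 162.7 FPKM in control leaves. Each was the closest of 22934 genes compared, and neither is named in the files. Members of a gene family can share reads, and the sources used here do not say how reads that match several genes were assigned. None of the 8 members shared all 6 values with another gene. The values of single glutamine synthetase genes are nevertheless uncertain to the extent that reads were shared.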

How the data were processed

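Leaf RNA of 3 transgenic and 3 control samples was sequenced from libraries made with a SMARTER mRNA-Seq kit, per the labels' protocols; no source used here says whether strand was kept. Each deposited table holds 1 library, with FPKM, the unit per the file headers, computed by the authors for 44351 genes and rounded to 2 decimals. Per the submitters' processing notes, a tool named is DESeq2, in no stated role, and the build named is mm10, of mouse, although the identifiers are those of maize; no source used here names the aligner, counting program or maize build. FPKM keeps no read number. Between the first libraries of the groups, the fullest window of low-value ratios held 3.02% of the genes compared. Between libraries of the same group it held 4.09% to 4.43%. No step of 1 read was therefore derived and no counting interval is given. The maize reference table matched 0 of 44146 Zm00001d identifiers, so the planned lists of other nitrogen genes, cell type markers and ZmSUS1 could not be named and are not reported, and no sequence is shown.

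The 22944 genes averaging 0.5 FPKM or more were tested by limma 3.58.1 (R 4.3.3) after the transformation log2(FPKM + 1) (group as the only term, intensity trend, two-sided, Benjamini-Hochberg over all tested genes). Log2 differences are transgenic minus control on that scale, which understates changes of low genes; folds are ratios of mean FPKM. Sums, shares and ratios were compared with exact permutation tests (scipy 1.17.1). The fit was tested on simulated data in which few genes changed, as many up as down, so that test does not cover a shift of most genes. The named genes are the 8 members and the nearest profile to the most abundant gene of each family. Members and lists were chosen with earlier results of these data known. Replicate numbers were not used as pairs: across genes, the deviations of transgenic and control libraries with the same number had correlations of 0.002, -0.05 and 0.002. Figures were drawn with matplotlib 3.10.9.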

Additional observations from a re-analysis of the deposited data

How the results depend on the processing

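The number of members called, 7 as deposited, was 7 or 8 under every alternative run, but the split moved with the scaling: 5 higher and 2 lower as deposited, 6 and 1 with median-of-ratios, 4 and 4 with the same total FPKM, and 5 and 3 with quantile normalisation. Over all tested genes the split was 3749 higher and 15529 lower as deposited, and 8368 and 8422 with median-of-ratios. It was 2800 and 17438 with the same total FPKM, and 7696 and 8993 with quantile normalisation. The calls were 19278 of 22944 tested genes as deposited. They were fewest with a minimum of 2 FPKM, 16133 of 18092, and most without a filter, 20891 of 33876. The share of genes called therefore moved with the filter. With the replicate block 7 members and 19187 genes were called; the labels do not tie same-numbered libraries, and the block ended no member's call. The sign turned in the values of 3 genes. That of Zm00001d049995 was -0.26 with the same total FPKM, -0.13 with quantile normalisation, -0.0027 without transgenic replicate 1 and -0.0061 without control replicate 3, and its values without single libraries ranged from -0.0061 to 0.029. That of Zm00001d017958 was -0.072 with the same total FPKM, and that of Zm00001d051804 was 0.051 with median-of-ratios scaling. The summed nitrate reductase difference, 4.77 FPKM, was -50.9 FPKM with the same total and -22.9 FPKM with quantile normalisation. The cause of these turns was not tested. The other 113 member values kept direction and call, and 1 kept its sign and gained a call, that of Zm00001d049995 with median-of-ratios scaling. Calls also changed among the values that turned. Zm00001d049995 was called lower with the same total FPKM and with quantile normalisation, and Zm00001d017958 was called lower with the same total FPKM. Zm00001d051804 lost its call with median-of-ratios scaling. Without single libraries the members called numbered 7 of 8 each time. In these runs 22742 to 23066 genes were tested and 18660 to 18843 were called, so the member count stayed near the background. The summed glutamine synthetase difference then ranged from 171.2 to 182.7 FPKM. The summed nitrate reductase difference ranged from 1.46 FPKM without control replicate 3 to 8.56 FPKM without transgenic replicate 2. The unknown depth limits the low members, Zm00001d018206 and Zm00001d048050, most, because limma holds no term for counting error.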
